A study of Mus musculus with 18 samples.

Results

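The late part of the retinal response to optic nerve crush was examined in C57BL/6J mice by setting the 3 arrays taken 5 days after the crush against the 3 arrays taken 2 days after it. These 6 arrays were chosen from the 18 arrays of the series by their labels alone, and every probe was compared. The mice were males 60 to 90 days old whose optic nerves were held in forceps for 10 seconds, and each array held total RNA from both retinas of 1 mouse. Untreated C57BL/6J controls and DBA/2J mice (control, 2 days and 5 days) supplied 3 arrays each. Both are inbred strains with no transgene, and the controls were other mice that were not operated on. The whole retina was used, so ganglion cells were a small part of the tissue.

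Crush damages the axons of the retinal ganglion cells, the output neurons of the eye, whose cell bodies stay in the retina and die over the following days and weeks. Around them Müller glia and astrocytes become reactive, and microglia, the resident immune cells, are activated. Type I and type II interferons are cytokines that start a shared program of antiviral and antigen-presenting genes, many of which are read through short DNA elements in their promoters. Some injured ganglion cells also switch on genes of axon regrowth, which in the mammalian optic nerve rarely leads to regrown axons.

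The signal of 46116 probes was read as log2 intensity and put on a scale that gives every array a mean of 8 and an SD of 2. A unit on this scale came to a median of 0.579 log2 over the 6 arrays, or 1.49-fold. The median probe of an array lay between 7.07 and 7.20 units and the upper quartile (percentile 75) between 8.09 and 8.59, so a value near 7 is a dim probe. The file gave no detection p-values, and precision is set by how many arrays there were. A probe was called, and its gene is said to have risen or fallen, where limma gave an adjusted p under 0.03 over all probes. The tissue label was borne out by photoreceptor genes, since the mean over 28 rod genes lay at 15.33 to 16.55 units in the 6 arrays.

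The array labelled C57BL/6J 2 days replicate 3 went against its strain label. Over 611 probes that parted the control retinas of the strains, it lay nearer the C57BL/6J controls at 10.5% of them, where the other 5 arrays did so at 80.5% to 83.6%. For DBA/2J 2 days replicate 1 this share was 84.8%, and for the other DBA/2J arrays after crush 8.18% to 13.9%. The files did not settle whether these labels were exchanged, so the main differences and list medians in C57BL/6J are also given without the first of these arrays, called below replicate 3 at 2 days. Over all probes, C57BL/6J 2 days replicate 1 correlated with the other 5 arrays at 0.928 to 0.949. Those arrays correlated among themselves at 0.962 to 0.989. Xist, the RNA of the inactive X chromosome, read 11.27 units in C57BL/6J control replicate 1, and the Y-linked Eif2s3y 7.02. The other 8 C57BL/6J arrays read 6.89 to 7.55 and 12.45 to 14.05, so this array went against its label as a male. Control values stand beside the results below and enter no test of 5 against 2 days other than through the shared estimate of the spread.

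At 5 days interferon-induced genes (Trim30a, Ifit3, Cxcl10, Psmb8), the peptides endothelin-2 and galanin, and Sec22c stood higher than at 2 days, and the neuronal genes Rbpms, Calb2, Nrn1 and Sult4a1 stood lower. Of 46116 probes, 14 were called (0.0304%), with 10 higher at 5 days (0.0217%) and 4 lower (0.00867%). The 13 annotated probes belonged to 12 genes, because Ifit3 was called by a pair of probes, and 1 called probe had no gene symbol. All 14 had no overlap between the arrays at 2 and at 5 days. At an unadjusted p under 0.05 there were 4698 probes (10.2%). Without C57BL/6J 2 days replicate 3 no probe was called by limma, with 4451 at an unadjusted p under 0.05 (9.65%) and a lowest adjusted p of 0.0406. The 14 probes then kept their sign at 0.91 to 1.10 times their size, with adjusted p of 0.0406 to 0.125. In whole retina, fewer cells of a type and less RNA per cell cannot be told apart.

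**Figure D1:**
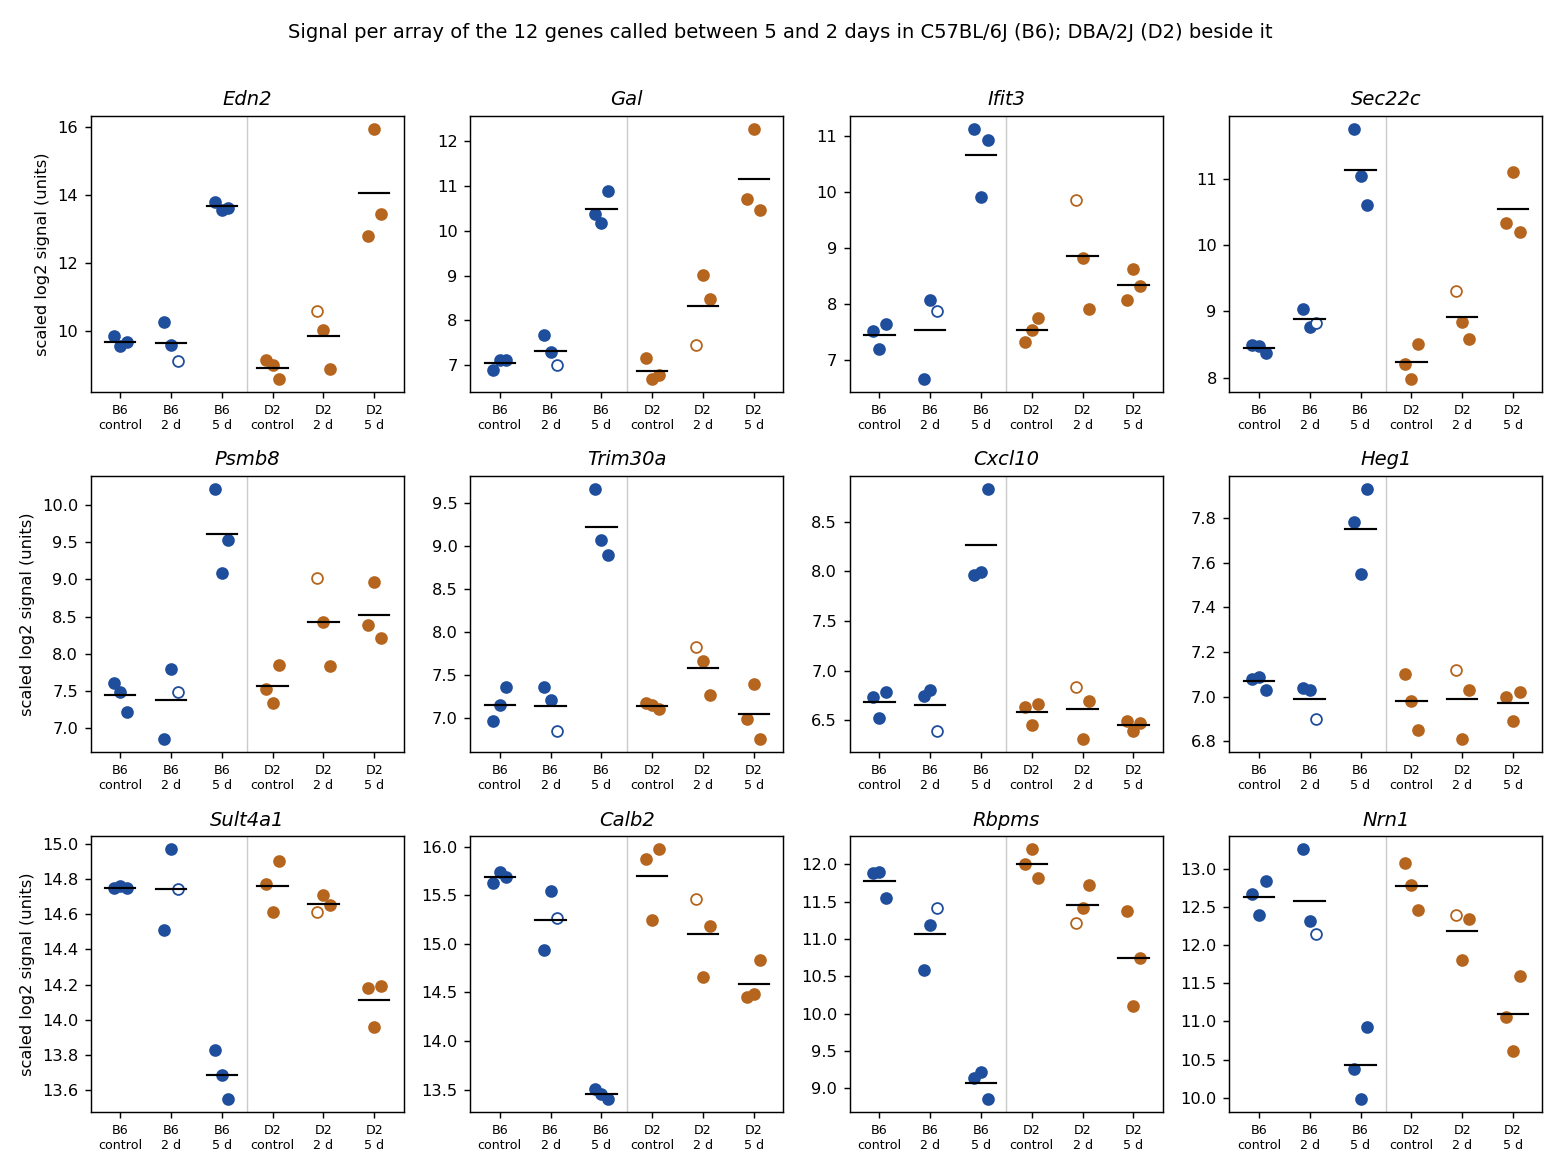
Scaled log2 signal (units, each panel on its own axis) of the 12 called genes in every array, with C57BL/6J in blue, DBA/2J in brown, group means as lines and the 2 arrays near the other strain's controls as open circles. For Ifit3 the called probe with the larger difference is shown, and for Psmb8 the only called probe. In each gene the 3 C57BL/6J arrays at 5 days lie apart from the 3 at 2 days.

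Promoter sequences are shown for the 4 called genes of the interferon program, since these moved together. Sequences ran from 250 bases before to 50 bases after the annotated start, from RefSeq on GRCm38.p6, written 5′ to 3′ on the strand of the gene. Capitals mark GAAANNGAAA or its reverse complement TTTCNNTTTC, the core of the interferon-stimulated response element, searched on both strands and with overlapping matches counted. The genes to print were chosen after their values had been seen, and of the pair of Trim30a starts in the table the first is shown.
Trim30a (chr7:104465144-104465443, minus strand): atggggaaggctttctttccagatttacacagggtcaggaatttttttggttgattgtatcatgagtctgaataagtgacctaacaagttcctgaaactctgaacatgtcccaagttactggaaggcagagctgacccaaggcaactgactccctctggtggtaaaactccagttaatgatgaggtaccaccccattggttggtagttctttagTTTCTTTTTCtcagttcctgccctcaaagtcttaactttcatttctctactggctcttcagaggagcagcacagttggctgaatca
Ifit3 (chr19:34583279-34583578, plus strand): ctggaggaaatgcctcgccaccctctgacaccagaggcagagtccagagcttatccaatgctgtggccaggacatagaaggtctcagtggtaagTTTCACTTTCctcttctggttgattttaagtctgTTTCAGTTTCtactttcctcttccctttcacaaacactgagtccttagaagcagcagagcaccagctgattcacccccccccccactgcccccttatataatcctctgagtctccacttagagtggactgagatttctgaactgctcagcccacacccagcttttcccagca
Cxcl10 (chr5:92348840-92349139, minus strand): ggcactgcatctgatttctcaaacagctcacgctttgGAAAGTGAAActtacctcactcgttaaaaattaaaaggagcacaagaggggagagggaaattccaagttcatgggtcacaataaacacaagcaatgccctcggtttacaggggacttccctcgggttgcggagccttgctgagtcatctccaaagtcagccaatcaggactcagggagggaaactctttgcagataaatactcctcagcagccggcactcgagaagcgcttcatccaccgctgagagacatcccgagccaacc
Psmb8 (chr17:34197945-34198244, plus strand): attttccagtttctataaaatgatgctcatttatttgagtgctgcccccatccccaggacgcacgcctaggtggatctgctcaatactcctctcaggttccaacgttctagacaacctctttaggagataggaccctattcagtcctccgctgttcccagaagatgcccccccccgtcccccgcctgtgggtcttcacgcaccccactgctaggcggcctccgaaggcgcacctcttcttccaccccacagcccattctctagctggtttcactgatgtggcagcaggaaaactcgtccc
The motif occurred once in the Trim30a promoter and once in that of Cxcl10, at 2 places in that of Ifit3 and at none in that of Psmb8. Of all 32851 promoters of this length 3.44% held it, or 3.99% of 27025 genes. RefSeq promoters were matched for 8 of the 12 called genes, all of them risen, and those of Trim30a, Ifit3 and Cxcl10 held the motif. Among 35 measured genes of an interferon response and antigen presentation list, 29 had a promoter and 11 of these held it. These were 7 of the 17 that stood higher at 5 days with no overlap, and 4 of the 12 others. A match of letters does not show that a factor was bound.

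Trim30a, an interferon-induced member of the tripartite motif family, gave the smallest p. It read 7.35, 7.20 and 6.84 units in the arrays at 2 days and 9.66, 9.07 and 8.89 at 5 days. All 3 arrays at 2 days were at the level of the controls, which read 6.96, 7.15 and 7.36. The difference was 2.08 units (SE 0.21, adjusted p = 0.00368 by limma), or 2.06-fold after quantile normalization. Without 2 days replicate 3 it was 1.93 units (adjusted p = 0.0406).

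Ifit3, whose protein binds viral RNA complexes together with its relatives, read 6.66, 8.08 and 7.87 units at 2 days and 11.14, 9.92 and 10.93 at 5 days. Among arrays labelled C57BL/6J, the lowest at 5 days lay well above the highest at 2 days. The array labelled DBA/2J 2 days replicate 1, which lay near the C57BL/6J controls, read 9.87, just under that lowest array. The difference was 3.13 units (SE 0.44, adjusted p = 0.0202), or 3.27-fold after quantile normalization, and 3.30 without replicate 3 (adjusted p = 0.0548). A second probe gave 2.92 units (adjusted p = 0.0248), and the third and brightest 2.64 units, which was not called (adjusted p = 0.345). Mouse Ifit3 has a near-identical neighbour, Ifit3b, and Trim30a has close relatives, so signal of such copies may be shared.

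Cxcl10, a chemokine that draws T cells and is induced by interferon, read 6.74, 6.80 and 6.39 units at 2 days and 7.96, 7.99 and 8.83 at 5 days. At 2 days the probe was as dim as in the controls, at 6.73, 6.52 and 6.78. It rose by 1.62 units (SE 0.20, adjusted p = 0.00793), or 1.49 without replicate 3 (adjusted p = 0.0548).

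Psmb8, a subunit of the immunoproteasome that cuts peptides for antigen presentation, rose by 2.23 units on 1 of its 3 probes (SE 0.33, adjusted p = 0.0248). On that probe the arrays read 6.85, 7.80 and 7.48 at 2 days and 10.22, 9.09 and 9.53 at 5 days. The brightest probe gave 1.67 units (adjusted p = 0.325) and the dimmest 0.28 (adjusted p = 0.586), neither of them called. Without replicate 3 the called probe gave 2.29 units (adjusted p = 0.0833).

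Of the 35 measured members of the interferon list, 19 had all 3 arrays at 5 days above all 3 at 2 days, where 3.7% of 17658 genes did so, and 1 had all below (12.2% of genes). The median difference was 1.23 units, beside -0.08 over all genes. On the probe that stood for each gene, the brightest, none of the 35 was called, where 0.0453% of genes were. By any of their probes 2 were, Ifit3 and Psmb8. Cxcl10 was held in the list of reactive glia and Trim30a in no list. Without replicate 3 the median was 1.06, and 21 members lay above (5.91% of genes).

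Isg15, a ubiquitin-like protein of the interferon program, read 6.86, 6.68 and 6.72 units at 2 days and 8.65, 7.56 and 8.15 at 5 days (difference 1.37, adjusted p = 0.0638). Usp18, the protease that takes Isg15 off its targets, differed by 1.81 units (adjusted p = 0.0992). Rsad2, the antiviral enzyme viperin, differed by 2.62 (adjusted p = 0.104) and Oasl2, a relative of the oligoadenylate synthetases, by 1.57 (adjusted p = 0.112). In all 4 the groups had no overlap, and none passed the test. Without replicate 3 these differences were 1.35 for Isg15, 1.75 for Usp18, 2.33 for Rsad2 and 1.30 for Oasl2. Other members with high values, named here after their values were seen, were B2m at 3.01 units and Ifitm3 at 2.93, or 2.5 and 2.59 without replicate 3. Mx1 at -0.12, Oas1a at 0.05 and Irf7 at 0.48 were among the members whose groups overlapped, and the lowest member was H2-Ab1 at -0.49.

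**Figure D2:**
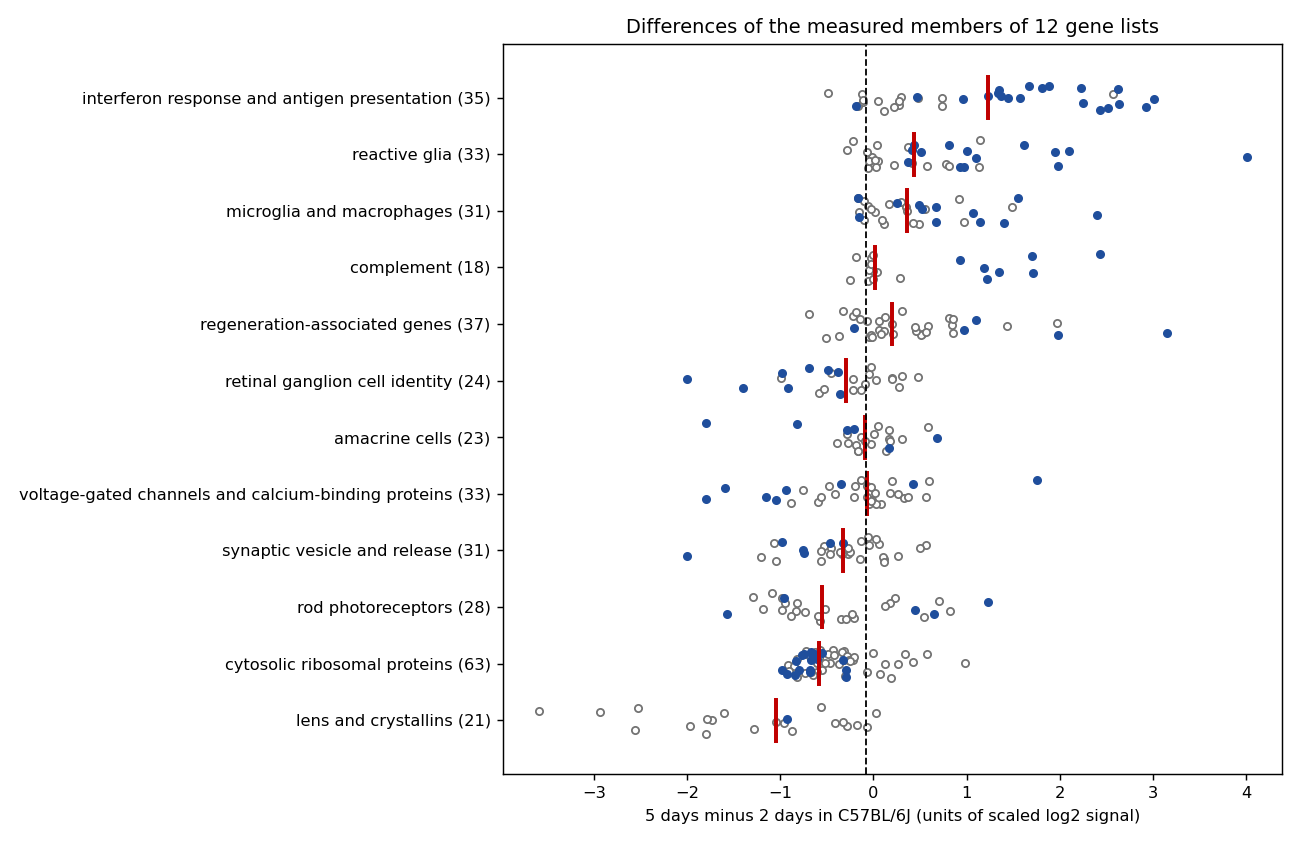
Difference between 5 and 2 days in C57BL/6J (units) for each measured member of 12 gene lists, with the number of genes in brackets. Filled points have no overlap of the groups, red lines are list medians and the dashed line is the median of all genes at -0.08. The interferon list has its median at 1.23 and the lens list at -1.04.

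The largest called rises included genes of injury peptides. Edn2, endothelin-2, a vasoactive peptide that photoreceptors release in a damaged retina, read 10.26, 9.59 and 9.12 units at 2 days and 13.80, 13.57 and 13.63 at 5 days. The controls read 9.84, 9.56 and 9.67, so the arrays at 2 days lay around them. The difference was 4.01 units (SE 0.60, adjusted p = 0.0263), or 5.09-fold after quantile normalization. Without replicate 3 it was 3.74 units (adjusted p = 0.125).

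Gal encodes galanin, a neuropeptide that injured neurons often switch on. It read 7.67, 7.30 and 7.00 units at 2 days and 10.37, 10.18 and 10.88 at 5 days. Levels at 2 days were close to those of a dim probe, with controls at 6.89, 7.12 and 7.11. The rise was 3.15 units (SE 0.42, adjusted p = 0.014), or 3.19-fold after quantile normalization, and 2.99 without replicate 3 (adjusted p = 0.0726).

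Sec22c, a membrane protein of transport between the endoplasmic reticulum and the Golgi, read 9.04, 8.77 and 8.83 units at 2 days and 11.76, 11.05 and 10.61 at 5 days. It rose by 2.26 units (SE 0.28, adjusted p = 0.00793) on 1 of its 4 probes. The other 3 gave 0.03, 0.35 and 1.34 and were not called. Heg1, a receptor of the endothelial surface, rose by 0.76 units (SE 0.11, adjusted p = 0.0248) on a dim probe, from 6.90 to 7.04 at 2 days to 7.55 to 7.93 at 5 days. Its other probes gave 0.08 and 0.27. The called probe with no symbol was 1.14 units higher (adjusted p = 0.00858). Without replicate 3 Sec22c gave 2.23 (adjusted p = 0.0548) and Heg1 0.71 (adjusted p = 0.12).

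**Figure D3:**
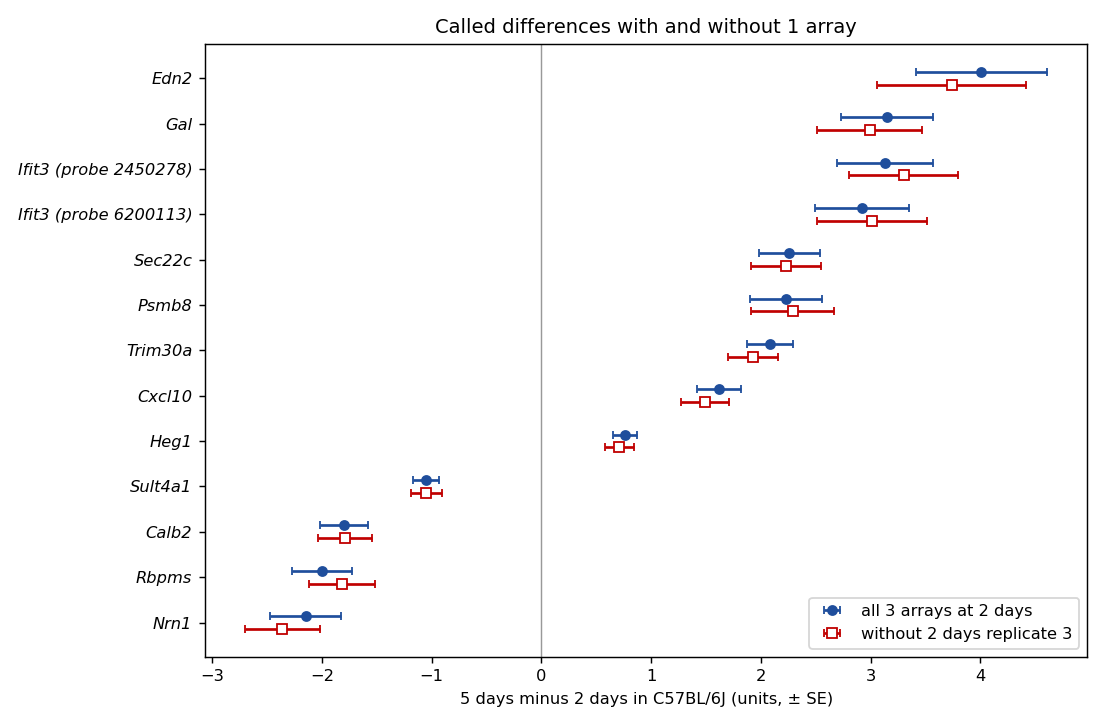
Difference between 5 and 2 days (units, bars are SE of the limma fit) of the 13 called probes with a gene symbol, with all 3 arrays at 2 days (blue) and without 2 days replicate 3 (red). Sizes keep their sign and stay within 0.91 to 1.10 times the first value, while none of the red values passes the threshold.

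All 4 called decreases were in genes of neurons. Rbpms, an RNA-binding protein that marks retinal ganglion cells, read 10.58, 11.19 and 11.42 units at 2 days and 9.14, 9.21 and 8.85 at 5 days. In the controls it read 11.89, 11.90 and 11.55, so the arrays at 2 days lay below the controls and those at 5 days lower again. It fell by 2.00 units (SE 0.27, adjusted p = 0.0143), a 2.34-fold change after quantile normalization. Its other 4 probes gave -0.21 to -0.81, none called.

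Calb2 encodes calretinin, a calcium-binding protein of amacrine and ganglion cells. The arrays at 2 days read 14.94, 15.55 and 15.27 units and those at 5 days 13.51, 13.45 and 13.40, a narrow band. It fell by 1.80 units (SE 0.22, adjusted p = 0.00793). A second, dimmer probe gave 0.71 in the other direction and was not called (adjusted p = 0.847). Without replicate 3 the called probe gave -1.79 (adjusted p = 0.0548).

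Nrn1, neuritin, an anchored protein that promotes neurite growth, read 13.26, 12.32 and 12.15 units at 2 days and 10.38, 9.98 and 10.93 at 5 days. Controls read 12.67, 12.39 and 12.84, so the arrays at 2 days straddled them. The gene fell by 2.15 units (SE 0.32, adjusted p = 0.0248), or 2.42-fold after quantile normalization. Sult4a1, a brain sulfotransferase, fell by 1.05 units (SE 0.12, adjusted p = 0.00793), from 14.51, 14.97 and 14.74 to 13.83, 13.69 and 13.55. Its level at 2 days was that of the controls, at 14.75, 14.76 and 14.75. Without replicate 3 Rbpms gave -1.82 (adjusted p = 0.0771), Nrn1 -2.36 and Sult4a1 -1.05 (adjusted p = 0.0548 for both).

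Since fewer than 5 genes were called lower, the next genes by p are given as values that did not pass. Cplx1, complexin 1, which controls release of synaptic vesicles, read 14.67 to 15.28 units at 2 days and 13.21, 12.77 and 12.96 at 5 days (difference -2.0, adjusted p = 0.0633). Caln1, calneuron 1, a neuronal calcium sensor, differed by -1.15 units (adjusted p = 0.0552). Ovca2, a serine hydrolase, differed by -0.88 (adjusted p = 0.0552) and Dpp10, an accessory subunit of potassium channels, by -0.86 (adjusted p = 0.0601). Cx3cl1, fractalkine, the neuronal ligand of a microglial receptor, differed by -0.53 units (adjusted p = 0.0609). In each of these the groups had no overlap. Anapc5, a subunit of the complex that ends mitosis, gave -0.76 (adjusted p = 0.0633). A second, dimmer Anapc5 probe gave 1.02 in the other direction and was not called (adjusted p = 0.363). Without replicate 3 the differences were -2.0 for Cplx1, -1.24 for Caln1, -0.87 for Ovca2, -0.70 for Dpp10, -0.55 for Cx3cl1 and -0.66 for Anapc5.

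Of 24 measured ganglion cell genes, 1 was called, Rbpms, where 0.0453% of all genes were. All arrays at 5 days lay below those at 2 days for 8 of the 24, where 12.2% of all genes did so. The median was -0.29 units, also without replicate 3. Slc17a6, the vesicular glutamate transporter of ganglion cells, read 13.20, 12.63 and 12.74 units at 2 days and 12.07, 11.67 and 11.90 at 5 days (difference -0.98, adjusted p = 0.128). Irx2, a transcription factor, gave -0.69 (adjusted p = 0.0765) and Chrna6, a nicotinic receptor subunit, -0.92 (adjusted p = 0.216). Thy1, a surface glycoprotein of ganglion cells, read 15.04, 13.32 and 12.91 units at 2 days and 12.51, 11.81 and 12.76 at 5 days (adjusted p = 0.327). Its 2 lower arrays at 2 days were already beneath the controls, which read 14.56 to 15.39. Without replicate 3 the differences were -1.04 for Slc17a6, -0.76 for Irx2, -0.87 for Chrna6 and -1.82 for Thy1, where all 3 arrays gave -1.40. The list was not uniform: Nefm at 0.20, Gap43 at 0.20 and Nefh at 0.28 were among the members without a lower value.

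Among calcium-binding proteins and channels, the median lay at that of all genes. Of 33 measured channel and calcium-binding genes Calb2 alone was called, where 0.0453% of all genes were. Below lay 6 members (18.2%) and above 2 (6.06%), where 12.2% and 3.7% of all genes did so. The median was -0.07 units (-0.10 without replicate 3). Pvalb, parvalbumin, read 10.64, 11.45 and 10.83 units at 2 days and 9.53, 9.08 and 9.56 at 5 days, and differed by -1.59 (adjusted p = 0.188). Its controls read 13.42, 13.01 and 13.15, above every array after crush. Vsnl1, visinin-like 1, a calcium sensor, differed by -0.94 (adjusted p = 0.103). From other lists, Chrna4, a nicotinic receptor subunit, differed by -0.84 (adjusted p = 0.0638), and Slc6a9, the glycine transporter of amacrine cells, by -0.82 (adjusted p = 0.189). Of 24 transmitter receptor genes 5 lay below (20.8%) and none above. Of 23 amacrine cell genes 4 lay below (17.4%) and 2 above (8.7%). Without replicate 3 Pvalb gave -1.66, Vsnl1 -0.98, Chrna4 -0.86 and Slc6a9 -0.82.

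The reactive glia list held 33 measured genes, of which 2 were called, Edn2 and Cxcl10, where 0.0453% of all genes were. Edn2 was also in the list of growth factor signalling, and list membership does not give the cell of origin. All arrays at 5 days lay above those at 2 days for 14 of the 33 (3.7% of all genes) and below for none (12.2% of all genes). The median was 0.44 units, or 0.39 without replicate 3. Osmr, the receptor of oncostatin M, read 8.89, 7.95 and 7.82 units at 2 days and 10.34, 9.83 and 10.33 at 5 days (difference 1.95, adjusted p = 0.0992). Stat3, the transcription factor under such receptors, differed by 1.98 units (adjusted p = 0.17). Gfap, the intermediate filament that marks gliosis, read 9.69, 7.61 and 7.86 at 2 days and 9.90, 8.86 and 9.79 at 5 days. Replicate 1 at 2 days reached the range of 5 days, the groups overlapped, and the difference of 1.13 was not called (adjusted p = 0.531). Without replicate 3 Osmr gave 1.75, Stat3 2.13 and Gfap 0.87.

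Microglial and complement genes gave no call. Of 31 microglia and macrophage genes, 10 lay above (32.3%) and 2 below (6.45%), where 3.7% and 12.2% of all genes did so, none was called, and the median was 0.36 units (0.25 without replicate 3). Mpeg1, the pore-forming perforin-2 of macrophages, read 7.95, 8.51 and 7.57 units at 2 days and 10.21, 10.68 and 10.35 at 5 days (difference 2.40, adjusted p = 0.0633). Cd52, a short surface glycoprotein of leukocytes, differed by 1.40 (adjusted p = 0.0782), Cx3cr1, the fractalkine receptor, by 0.67 (adjusted p = 0.104) and the lysosomal Laptm5 by 1.55 (adjusted p = 0.125). Without replicate 3 these 4 gave 2.18, 1.28, 0.62 and 1.31. Defining markers differed among themselves, and those given here were chosen after their values were seen. Tyrobp and Trem2, signalling partners at the microglial surface, differed by 1.14 (adjusted p = 0.212) and 0.67 (adjusted p = 0.367) and Tmem119 by 0.49 (adjusted p = 0.343), all with no overlap. Aif1 at 0.97 and Fcer1g at 1.49 overlapped (0.96 without replicate 3 for Fcer1g), as did P2ry12 at -0.06 (0.01 after quantile normalization), Ptprc at -0.10 and Itgam at 0.02.

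Of 18 complement genes, 7 lay above (38.9%, beside 3.7% of all genes) and none below (12.2% of all genes), although the median was 0.02 units (0.06 without replicate 3). The 7 were early components and regulators. C4a, a copy of component 4, read 9.09, 8.04 and 8.16 units at 2 days and 10.78, 10.61 and 11.20 at 5 days (difference 2.43, adjusted p = 0.0633), and its near-identical neighbour C4b gave 0.93. C1qb and C1qc, chains of the recognition protein C1q, differed by 1.70 (adjusted p = 0.129) and 1.71 units (adjusted p = 0.158), and Clu, clusterin, by 1.22 (adjusted p = 0.164). Without replicate 3 C4a gave 2.30, C1qb 1.42, C1qc 1.24 and Clu 1.0.

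**Figure D4:**
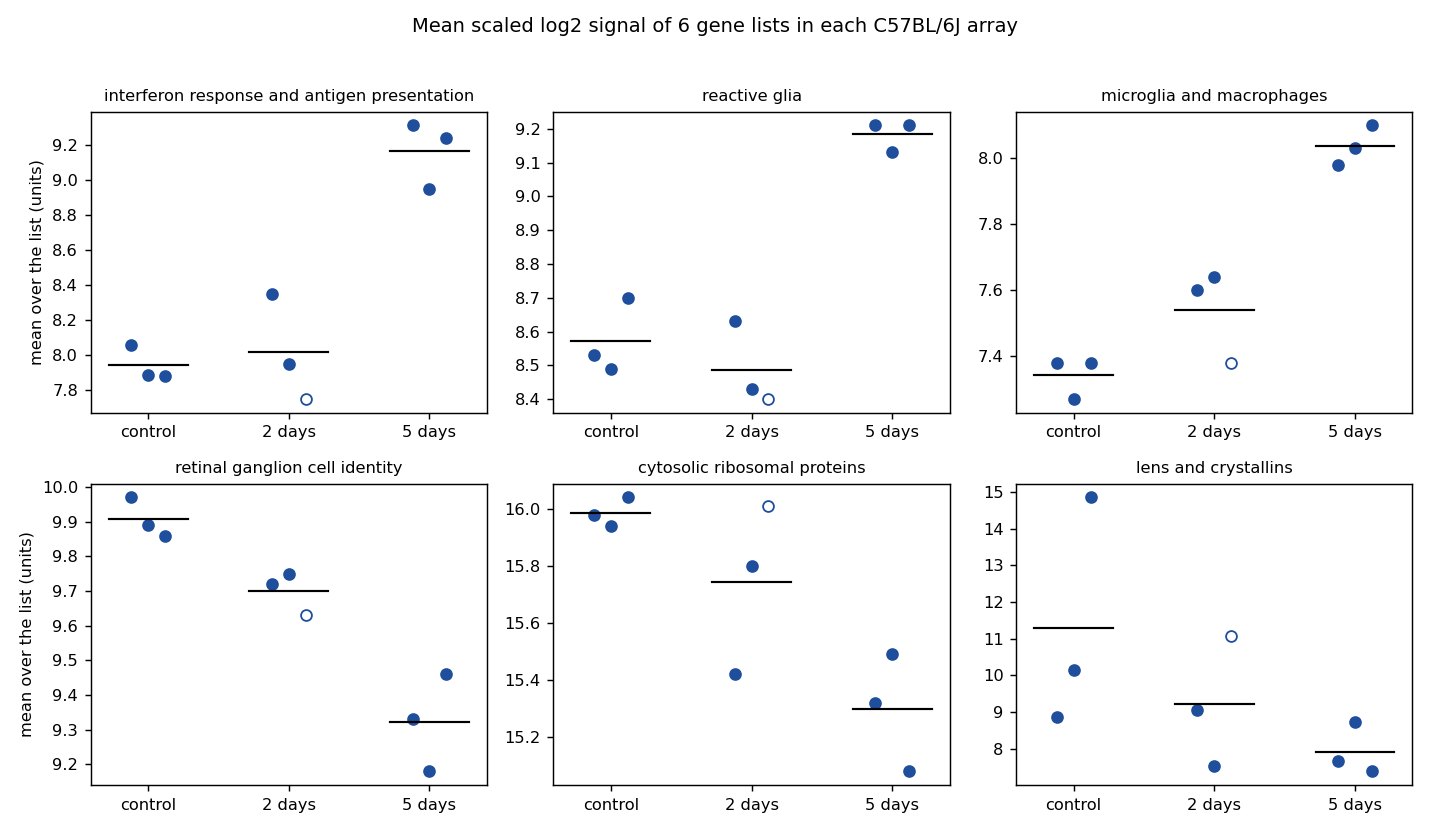
Mean scaled log2 signal (units, each panel on its own axis) over the members of 6 gene lists in each C57BL/6J array, with group means as lines and 2 days replicate 3 as an open circle. The interferon list lies at 7.75 to 8.35 at 2 days and 8.95 to 9.31 at 5 days, and the ganglion cell list at 9.63 to 9.75 and 9.18 to 9.46.

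Regeneration-associated genes gave 1 call in 37, Gal, where 0.0453% of all genes were called. Above lay 4 members (10.8%, beside 3.7% of all genes) and below 1 (2.7%, beside 12.2%). The median was 0.20 units, or 0.11 without replicate 3. Ecel1, a protease of injured neurons, read 9.60, 7.69 and 7.28 units at 2 days and 10.34, 9.39 and 10.76 at 5 days, so the groups overlapped (difference 1.97, adjusted p = 0.164, and 1.52 without replicate 3). Sox11, a transcription factor of axon growth, read 11.29, 10.05 and 9.47 at 2 days and 11.23, 10.54 and 10.61 at 5 days (difference 0.52, adjusted p = 0.599, and 0.12 without replicate 3). Both groups lay above its controls, at 8.06 to 8.36, and overlapped each other. Of 32 stress and cell death genes none was called, and the median was 0.10 units, or -0.08 without replicate 3. Atf4, the transcription factor of the integrated stress response, varied at 2 days from 7.14 in replicate 1 to 13.49 in replicate 2. The difference was 3.33 (adjusted p = 0.354), and 3.82 without replicate 3. Among other lists, Trf, the iron carrier transferrin, read 9.15, 10.52 and 9.91 units at 2 days and 12.99, 12.04 and 12.97 at 5 days (difference 2.81, adjusted p = 0.0609, and 2.83 without replicate 3). Bag3, a co-chaperone of selective autophagy, differed by 1.40 (adjusted p = 0.125), or 1.18 without replicate 3.

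Lists of bright probes gave different medians on the scale in units and after quantile normalization. The median of 63 cytosolic ribosomal proteins was -0.58 units, with 19 members below (30.2%, beside 12.2% of all genes) and none above (3.7% of all genes), and -0.10 log2 after quantile normalization. Rods gave -0.55 units and 0.01 log2, synaptic genes -0.33 units and -0.00 log2, and 48 respiratory chain genes -0.34 units and -0.08 log2. For the interferon list the quantile value was 0.58 log2, for reactive glia 0.29 and for ganglion cell genes -0.19, beside -0.04 over all genes. Without replicate 3 the medians in units were -0.42 for ribosomal proteins, -0.45 for rods, -0.33 for synaptic genes and also -0.33 for the respiratory chain. Signal at percentile 95 divided by that at percentile 5 was 9.28 to 12.85 at 2 days and 11.07 to 15.44 at 5 days (exact permutation test, two-sided, p = 0.4, n = 3 and 3, smallest possible 0.1). Its part in these medians was not tested.

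A list of qRT-PCR genes, picked by the study from these samples, held no called gene. It had 13 measured members and a median of -0.79 units, or -0.41 without replicate 3. Crym, a thyroid hormone-binding protein, read 14.09, 14.12 and 13.87 units at 2 days and 16.43, 16.26 and 15.24 at 5 days (difference 1.95, adjusted p = 0.112). Bcl2a1a, a survival protein of the Bcl-2 family, differed by 1.21 (adjusted p = 0.445). Egr1, an immediate early gene, gave -0.79 (adjusted p = 0.628), Sag, the rod arrestin, -0.98 (adjusted p = 0.703), and Lpin1, a lipid phosphatase, -0.29 (adjusted p = 0.703). Other, dimmer probes of Sag gave 0.44 and 0.70 in the other direction and were not called. Actb, the beta-actin control, gave -0.13 (adjusted p = 0.899) and had the other sign, at 0.17, after quantile normalization. Without replicate 3 Crym gave 1.87, Bcl2a1a 1.29, Egr1 -1.24, Sag -0.50, Lpin1 -0.47 and Actb -0.41.

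Lens crystallins varied more between arrays than between days. The mean over 21 lens genes was 9.06, 7.54 and 11.08 units at 2 days and 7.66, 8.72 and 7.39 at 5 days, so replicate 3 at 2 days was highest. The median difference was -1.04 units and -0.33 without it, so the size of this list difference depended strongly on 1 array. Crybb2 (-3.59, adjusted p = 0.619), Cryba2 (-2.53, adjusted p = 0.745) and Cryaa (-1.73, adjusted p = 0.83) were not called, and without replicate 3 they gave -1.67, -0.39 and 0.55. No member of the lists of lens, pigment epithelium, muscle, erythroid, oligodendrocyte, endothelium or lymphocyte genes was called, and Heg1 was in none of these lists. Lymphocyte and granulocyte genes had a median of -0.18 units (-0.23 without replicate 3) with 5 of 13 below (38.5%, beside 12.2% of all genes) and levels at 2 days near those of a dim probe. Of 7 erythroid genes 3 lay below (42.9%), with a median of -0.21 units (-0.19 without replicate 3).

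In DBA/2J, on other arrays, no probe was called between 5 and 2 days by limma (2252 at an unadjusted p under 0.05, 4.88%). Of the 14 probes called in C57BL/6J, 9 had the same sign there, and the median change in the C57BL/6J direction was 0.52 units beside 2.11 in C57BL/6J. Edn2 differed by 4.22 units, Gal by 2.84 and Sec22c by 1.64, all with the sign seen in C57BL/6J. Trim30a gave -0.53, the larger Ifit3 probe -0.52, Cxcl10 -0.16 and Psmb8 0.10. With both arrays near the other strain's controls left out, these gave -0.41, -0.03, -0.05 and 0.39. Edn2, Gal and Sec22c then gave 4.61, 2.40 and 1.83.

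The difference of the strains was called for 1 of 46116 probes (0.00217%), that of Trim30a. Its change from 2 to 5 days was 2.61 units larger in C57BL/6J (SE 0.30, adjusted p = 0.0165 by limma), and 2645 probes (5.74%) had an unadjusted p under 0.05. The DBA/2J arrays read 7.82, 7.66 and 7.26 at 2 days and 6.98, 7.39 and 6.75 at 5 days, all beneath the C57BL/6J arrays at 5 days. Without C57BL/6J 2 days replicate 3 no probe was called for this difference (lowest adjusted p 0.0724, 2740 or 5.94% at an unadjusted p under 0.05), and with the pair of doubtful arrays left out Trim30a gave 2.35 (adjusted p = 0.293). The next genes by p were Cxcl10 (adjusted p = 0.375), Ifit3 (adjusted p = 0.388) and Brwd1, a bromodomain protein (adjusted p = 0.388).

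Of the 35 interferon genes, 3 had all DBA/2J arrays at 5 days above those at 2 days, where 4.63% of genes did so, and the median change was 0.30 units. None of the 35 passed the test of a difference between the strains, whose median over the list was 0.43 units beside -0.07 over all genes. The DBA/2J list means were 8.43, 8.36 and 7.78 units at 2 days and 8.11, 9.45 and 8.03 at 5 days, so 1 DBA/2J array at 5 days reached the C57BL/6J range of 8.95 to 9.31. The doubtful DBA/2J array at 2 days, replicate 1, which lay near the C57BL/6J controls, read 9.87 units for the larger Ifit3 probe and 9.02 for Psmb8, above all 3 arrays labelled C57BL/6J 2 days. These values lay just under the lowest C57BL/6J arrays at 5 days, 9.92 for Ifit3 and 9.09 for Psmb8. Without both doubtful arrays the DBA/2J median was 0.47 units. Of the 33 reactive glia genes, 13 had all DBA/2J arrays at 5 days above those at 2 days, beside 4.63% of genes. Their median change in DBA/2J was 0.52 units, where C57BL/6J gave 0.44. The DBA/2J means of this list were 8.62, 8.72 and 8.58 units at 2 days and 8.94, 10.44 and 8.97 at 5 days. Replicate 2 at 5 days thus stood apart, where the C57BL/6J arrays at 5 days read 9.21, 9.13 and 9.21.

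**Figure D5:**
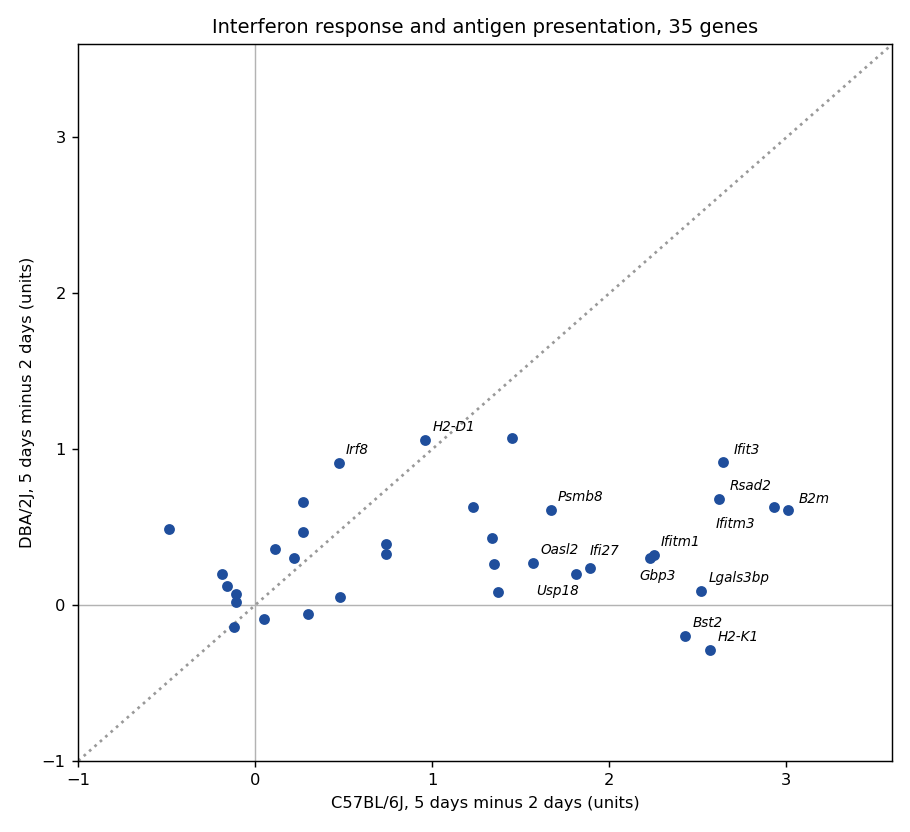
Change from 2 to 5 days in C57BL/6J (x axis, units) and in DBA/2J (y axis, units) for 35 genes of interferon response and antigen presentation, 1 probe a gene, with the dotted line of equal change. The medians are 1.23 and 0.30, and none of the points passed the test of a difference between the strains.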

How the data were processed

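RNA of both retinas of a mouse was labelled and hybridised to 1-colour Illumina Mouse-6 arrays, 3 arrays for each of 6 groups. The authors deposited non-normalized signal intensity, with no statement on background correction. They also deposited scores, made as 2 times the z-score of log2 intensity within an array plus 8. The same transform was applied to the intensities, and 99.7% of probes equalled the scores within 0.02. Which array lay on which BeadChip was not given in the sources used here, so no block for it was fitted.

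limma (3.58.1, R 4.3.3) was fitted to all 18 arrays with a mean for each group (lmFit, then eBayes), and p-values were adjusted by the Benjamini-Hochberg method over 46116 probes. A probe was called at an adjusted p under 0.03, the threshold of the study. The test of a difference between the strains came from the same fit. Of the probes, 29534 had 1 gene symbol, 11 several and 16571 none, which gave 17658 genes. In gene lists the probe with the highest mean signal stood for a gene. Lists were described by counts and medians with no test.

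Genes were named by rule: up to 15 largest called differences each way with no overlap, or 10 with the smallest p where fewer than 5 were called in a direction, the 4 members of each of 38 lists with the smallest p, the qRT-PCR genes, and up to 5 with the smallest p in the strain difference. Only some of these are printed. The comparison, the lists and the rules were chosen with earlier results of these data known. Alternatives were quantile normalization, normexp with an offset of 50, the scores, the brighter 23058 probes, an intensity trend and a replicate block. Fewer groups, a threshold of 0.05 and each array after crush left out were also used. Control arrays were not left out singly. The fit was tested on simulated data. Python 3.11.15 with pandas 2.3.3, numpy 2.4.6, scipy 1.17.1 and matplotlib 3.10.9 made the other steps.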

Additional observations from a re-analysis of the deposited data

Results flagged for a closer look

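Trim30a differed between the strains by the test of that difference. Its change from 2 to 5 days was 2.61 units larger in C57BL/6J than in DBA/2J (SE 0.30, adjusted p = 0.0165 by limma over all probes), with all 3 C57BL/6J arrays at 5 days above every other array after crush. The adjusted p was 0.0724 without C57BL/6J 2 days replicate 3, and 0.293 with the 2 arrays near the other strain's controls left out. With 3 arrays a group, single arrays were not tested as outliers.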

How the results depend on the processing

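Between 5 and 2 days 14 probes were called, and 14 with the deposited scores, 15 after quantile normalization (8 higher and 7 lower), 20 after normexp (10 and 10), 12 among the brighter 23058 probes, 15 with an intensity trend (13 and 2) and 16 at a threshold of 0.05. The count was 0 from the 2 groups alone (3283 at an unadjusted p under 0.05), 3 from the 9 arrays of C57BL/6J and 0 from 16 arrays with both doubtful arrays left out. Leaving out 1 array after crush gave 0 to 58, and no control array was left out singly. The count was 22 without C57BL/6J 2 days replicate 1, 1 without replicate 2 and 0 without replicate 3, 3 without 5 days replicate 1, and 9, 58 and 7 without DBA/2J 2 days replicate 2, 5 days replicate 2 and 5 days replicate 3, arrays which entered through the shared spread alone. Of the 14 probes, 11 were also called after quantile normalization and 12 after normexp. The strain difference, called for 1 probe, was called for 0 after quantile normalization (lowest adjusted p 0.127), 0 after normexp, 0 from the 16 arrays and 0 to 1 with 1 array after crush left out. It was lost without any 1 of C57BL/6J 2 days replicates 2 and 3, C57BL/6J 5 days replicates 1 and 2, DBA/2J 2 days replicates 1 and 2 and DBA/2J 5 days replicates 1 and 3. With a replicate block 15 probes were called (9 higher and 6 lower), 10 of them among the 14, and 1 for the strain difference. Deviations of arrays with equal replicate numbers correlated at 0.375, 0.477 and -0.055, and those with unequal numbers at -0.459 to 0.244. Whether the replicate numbers pair the arrays was not settled. Over 77 results of single probes, the sign changed in 20 of 1685 repeats, 135 dropped below the threshold and 25 passed it. Only called results could drop, so the 135 came from the 14 called probes and the strain difference of Trim30a alone. With repeats without a DBA/2J array set aside, these probes kept their call in 5 (Psmb8, of 15) to 11 repeats (Trim30a, of 15). The sign changes were all in probes that were not called, and their cause was not tested. After quantile normalization and after normexp, Actb gave 0.17 and 0.18 and P2ry12 0.01 and 0.02. With each array after crush left out in turn, the differences ranged from -0.47 to 0.00 for Lpin1, -3.24 to 0.55 for Cryaa, -0.41 to 0.12 for Actb, -0.16 to 0.50 for Nefm, -0.14 to 0.58 for Nefh, -0.12 to 0.03 for P2ry12, -0.15 to 0.00 for Ptprc and -0.00 to 0.08 for Oas1a. For Itgam they ranged from -0.05 to 0.12. With both doubtful arrays left out, Cryaa gave 0.55 and Itgam -0.05. Medians of 12 lists moved by less than the spread of arrays in 235 of the repeats and by more in 17. The cause of the larger moves was not tested. Having 3 arrays a group and probes near background limit what could be called.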
